A study of Homo sapiens with 11 samples.

Results

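Human chromosome 19 holds the densest collection of zinc finger genes in the genome, and their transcripts were followed here through a day of hypoxia in RWPE1 cells. The members are the protein-coding genes of chromosome 19 whose symbol begins with ZNF and a number and which held 200 or more counts over the 11 libraries. Of 249 protein-coding genes with such a symbol on this chromosome, 210 met the count rule, out of 60676 genes in the count table. The rule used the total over all libraries and not the difference between time points. Such a total can be reached mostly through the normoxic libraries, so a gene that fell can pass on its normoxic counts. Results with a minimum of 1000 counts are given in the last section. ZNF284 with 200 counts, ZNF222 with 219 and ZNF568 with 224 lay just inside it, and ZNF541 with 196, ZNF135 with 187 and ZNF610 with 134 just outside. All 210 members passed the filter on low counts, so none of them was left out of the tests.

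RWPE1 cells are human prostate epithelial cells that were immortalized and do not form tumours, and the study sought genes that hypoxia induces through a time course. RNA was sequenced from 3 libraries of cells kept in normoxia (0 h), 3 after 6 h in 1% O2, 3 after 12 h and 2 after 24 h. One more 24 h library was not analysed here. The labels add that hypoxic cells also got 10 mM HEPES in their medium, so low oxygen and the added buffer cannot be told apart. All libraries come from 1 line, and nothing in the labels says that replicates were separate cultures, so p-values measure only the spread between these libraries, which may be technical.

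Zinc finger proteins of the C2H2 class carry repeated short domains in which paired cysteines and histidines hold a zinc ion, and runs of such fingers read DNA sequence. Most genes of this class on chromosome 19 arose by tandem duplication and lie in clusters. Many encode a KRAB domain at the protein start. This domain binds TRIM28 (KAP1), which brings the histone methyltransferase SETDB1, heterochromatin protein 1 and the NuRD complex, and the assembly silences retrotransposons and some genes. Low oxygen acts on transcription largely through the HIF factors, which bind short response elements.

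The coding sequence of every member held at least 1 C2H2 finger pattern (cysteine pair, 12 residues, histidine pair), with 1 to 32 fingers and a median of 13, in proteins of a median 589 residues. A KRAB-like stretch was defined as 8 residues within 3 mismatches of the 8-residue stretch most often found among the first 150 residues of the members, and 179 members had one. It was exact in 78 members. Only this short stretch was sought, so a member without it may still encode a KRAB domain. The 24 coding bases of this stretch are shown for 7 members below, since the presence of the stretch is one of the features by which the results are split. They were read from GRCh38, 5′ to 3′ on the coding strand, and capitals mark bases that differ from the spelling most frequent among the members, which ZNF77 and 5 other members carry.

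ZNF77, chr19:2939306-2939329, minus strand: ctctacagagatgtgatgctggag
ZNF224, chr19:44100879-44100902, plus strand: ctGtaTCgagatgtgatgctggag
ZNF772, chr19:57475685-57475708, minus strand: ctGtacCgTgatgtgatgctggag
ZNF584, chr19:58410043-58410066, plus strand: ctAtacCgGgatgtgatgctggag
ZNF274, chr19:58185790-58185813, plus strand: ctGtacagGgaAgtgatgctggag
ZNF429, chr19:21529736-21529759, plus strand: TtAtaTagaAatgtgatgTtAgag
ZNF587, chr19:57856185-57856208, plus strand: TtGtacCgTgatgtgatgctAgag

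ZNF224, ZNF772 and ZNF584 each differ from the frequent spelling by 3 bases and by 0 residues, and ZNF274 by 3 bases and 1 residue. ZNF429, from the cluster of genes nearest the centromere on the short arm, differs by 6 bases and 1 residue. ZNF417 carries the same 24 bases as ZNF587, its close copy on the same chromosome arm.

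Library totals ran from 27496009 to 49488345 counts. Mitochondrial transcripts took 10.2% to 10.3% of counts in normoxia, 4.30% to 6.78% at 6 and 12 h, 1.74% in the 24 h replicate 1 and 0.369% in the 24 h replicate 2. The latter library stood apart, with a TMM scaling factor of 0.539 against 0.851 to 1.32 in the others, and results on the 24 h libraries are given with and without it. CA9, SLC2A3, EGLN3 and VEGFA, which hypoxia is known to induce, were higher at all 3 times. The basal epithelial genes KRT5, KRT14, TP63 and ITGA6 were present in every library but differed between groups. TP63 was called lower at 6, 12 and 24 h (-1.72, -0.95 and -1.50 on the log2 scale), KRT14 (1.21, 1.39 and 2.14) and ITGA6 (1.70, 1.67 and 1.25) higher at each, and KRT5 higher at 12 and 24 h. Of the other epithelial genes, KRT8, KRT18 and EPCAM were called higher at each time and CDH1 lower at 24 h (-1.06). KLK3, DCN and CD3E did not pass the filter on low counts. COL1A1, a collagen gene of fibroblasts, was at 47.1 to 60.5 CPM in normoxia and was called lower at 12 and 24 h, while the fibroblast genes COL1A2 and DCN and the endothelial genes PECAM1, VWF and CDH5 did not pass the filter. The part of these differences between libraries in the results was not tested.

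The zinc finger genes of chromosome 19 fell as a group, and the fall was present in each hypoxic library. Together they took 0.236% to 0.246% of all counts in normoxia, 0.150% to 0.175% after 6 h, 0.124% to 0.152% after 12 h, and 0.101% and 0.0659% after 24 h. These raw shares do not rest on the scaling factors. Scaled by library size alone, the median log2 fold change of all genes tested was also below 0, at -0.32, -0.50 and -0.97. That of the members was -0.88, -1.08 and -1.93 at 6, 12 and 24 h, so part of the fall in share was common to all genes. On the CPM scale (counts per 1000000 of the TMM-scaled library) their summed level was 1854 ± 13.7 in normoxia (SD, n = 3), 1515 ± 134 after 6 h (n = 3), 1483 ± 102 after 12 h (n = 3) and 1204 ± 27.5 after 24 h (n = 2), which is 81.7%, 80.0% and 64.9% of the normoxic sum. The groups did not overlap between normoxia and hypoxia. Measured library by library, the median member lay 0.40, 0.66 and 0.67 below its normoxic mean on the log2 CPM scale at 6 h, 0.75, 0.51 and 0.49 below at 12 h, and 0.93 and 1.04 below at 24 h. On this TMM-scaled log2 CPM scale, the median over all genes tested stayed within 0.15 of normoxia in each of these libraries. In bulk RNA, fewer transcripts per cell and fewer cells with the transcript cannot be told apart.

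**Figure D1:**
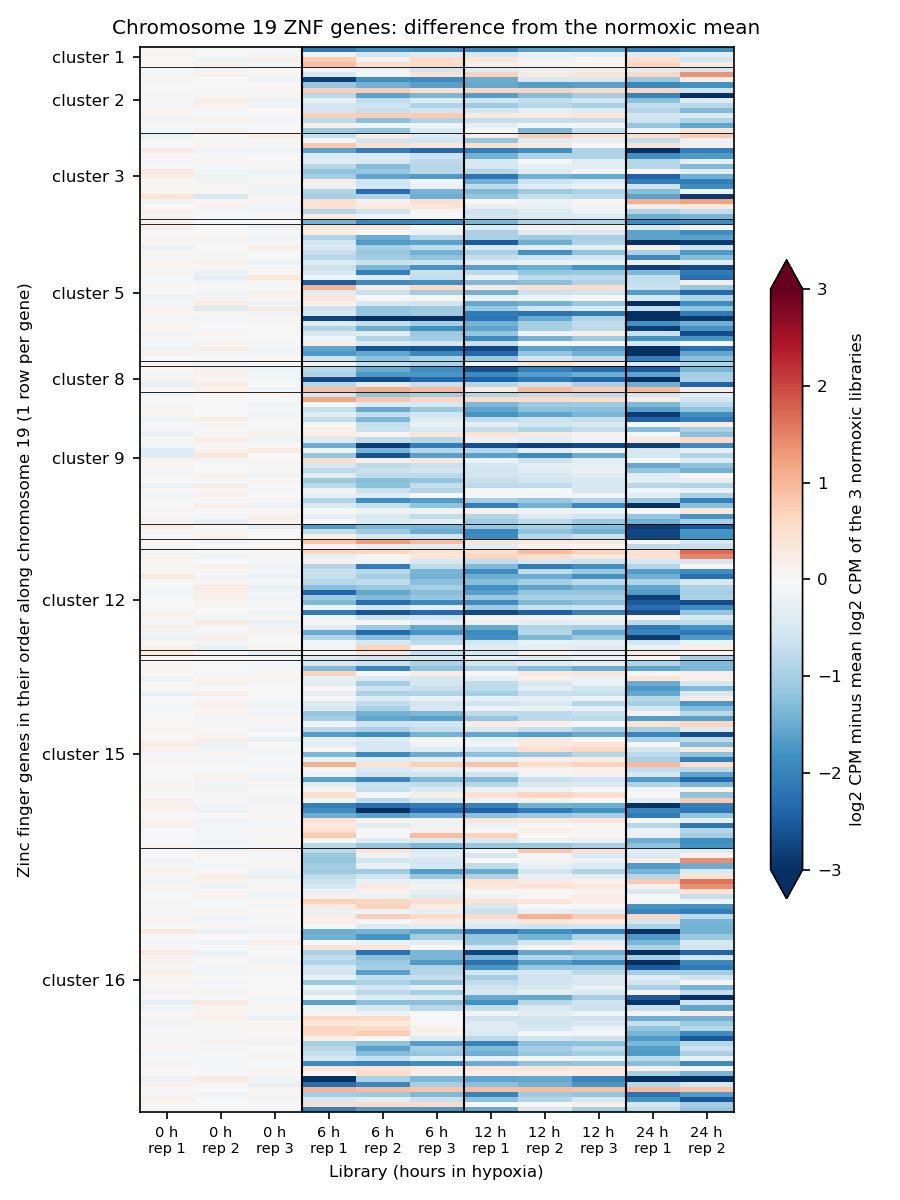
Each row is 1 of the 210 zinc finger genes in its order along chromosome 19 and each column 1 of the 11 libraries, with colour giving log2 CPM minus the mean log2 CPM of the 3 normoxic libraries. Blue, lower than normoxia, fills most rows of the 8 hypoxic columns, and is deepest in the 2 columns at 24 h.

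Most of the tests that passed were in the downward direction. A gene was called when the Benjamini-Hochberg adjusted p of edgeR's quasi-likelihood test was under 0.05 over the 19981 genes tested. After 6 h, 105 of 210 members were called lower and 15 higher, against 27.7% and 25.1% of all genes tested (120 in either direction, against 52.8%). After 12 h, 111 were lower and 9 higher, against 27.1% and 24.2% of all genes (120 in either direction, against 51.2%). After 24 h, 133 were lower and 11 higher, against 31.3% and 29.9% (144 in either direction, against 61.2%). The median log2 fold change of the members was -0.56, -0.61 and -1.001 at the 3 times, and that of all genes tested was -0.0021, -0.033 and -0.065. At 24 h the median member was at 49.95% of its normoxic level. The small counts of higher members depended on single libraries. At 6 h the count was 9 without the normoxic replicate 2, the normoxic replicate 3 or the 6 h replicate 1. At 12 h it was 2 or 3 without any 1 of the normoxic libraries or without the 12 h replicate 2 or 3, and 15 without the 24 h replicate 2. These 3 comparisons share the normoxic libraries and are not independent of each other.

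Called lower at all 3 times were 77 members (36.7%), against 17.9% of all genes tested, and called higher at all 3 times were 3 members (1.43%), against 14.8%. In 107 members (51.0%) all 8 hypoxic libraries lay below all 3 normoxic ones, against 25% of all genes, and in 5 members (2.38%) all 8 lay above, against 20.5%. Taken time by time, all libraries lay below normoxia in 132 members at 6 h, 143 at 12 h and 155 at 24 h, against 36%, 37.6% and 39.4% of all genes, and above it in 24, 22 and 19, against 33.6%, 34.8% and 33.7%. A further 37 members (17.6%) were called at none of the 3 times, near the 21.5% of all genes tested. Without the 24 h replicate 2, the counts at 24 h were 128 lower and 7 higher with a median of -0.97, and without the 24 h replicate 1 they were 133 lower and 10 higher with a median of -1.11. Of the 133 members called lower at 24 h, 65 kept the call with limma's voom and sample quality weights. Calls became fewer over all genes too, with 2450 of 19981 lower at 24 h under these weights, against 6261 in the main fit. None of the 133 changed sign under any of the alternatives fitted.

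Zinc finger genes on other chromosomes moved the same way by a smaller median. Among 224 genes with a ZNF symbol elsewhere in the genome and the same count minimum, 82, 78 and 126 were called lower and 41, 31 and 22 higher at 6, 12 and 24 h. Their median log2 fold changes were -0.16, -0.30 and -0.74. The 744 other protein-coding genes of chromosome 19 had medians above 0, at 0.11, 0.17 and 0.26. Of these 744, 172, 148 and 195 were called lower and 199, 239 and 305 higher. Over all genes tested, 27.7%, 27.1% and 31.3% were called lower and 25.1%, 24.2% and 29.9% higher. At 6 h the shares of the 744 genes called were near those of all genes. The difference between these sets of genes was not tested.

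**Figure D2:**
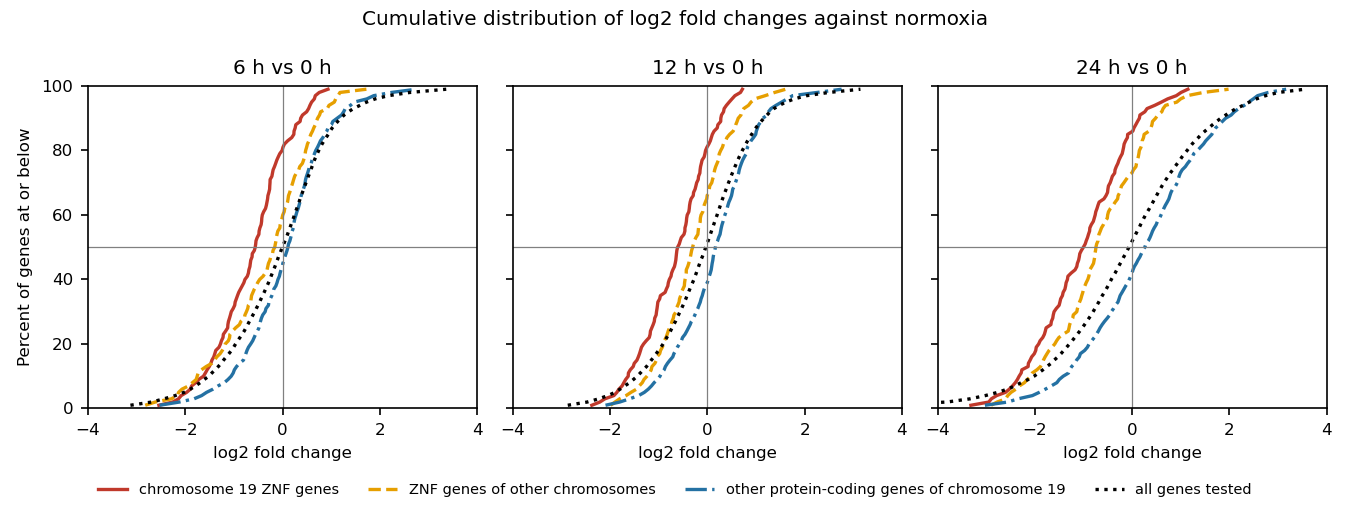
Each curve gives the percent of genes (vertical axis) at or below a log2 fold change against normoxia (horizontal axis) after 6, 12 and 24 h. The curve of the chromosome 19 ZNF genes lies farthest left at the median in each panel (medians -0.56, -0.61 and -1.001), and that of the other protein-coding genes of the chromosome farthest right (0.11, 0.17 and 0.26).

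The genes that fell most were fixed by rule as the 8 with the lowest average of the 3 log2 fold changes among the members called lower at all 3 times. ZNF429 (chr19:21496682-21556270, plus strand), a KRAB gene with 15 fingers in the cluster between 19.7 and 24.1 Mb, is 1 of these. Gene positions are those of GENCODE on GRCh38. It was at 7.05, 6.29 and 7.33 CPM in normoxia, 0.957, 0.551 and 0.625 CPM after 6 h, 1.49, 2.37 and 3.61 CPM after 12 h and 0.727 and 0.872 CPM after 24 h. All 8 hypoxic libraries lay under normoxia, and the 12 h libraries lay above those of 6 and 24 h. Its log2 fold changes were -3.29 ± 0.32 (SE) at 6 h, -1.45 ± 0.29 at 12 h and -3.11 ± 0.39 at 24 h, with edgeR adjusted p of 7.07e-06, 0.0012 and 3.03e-05. The increase from 6 to 12 h was 1.83 ± 0.32 with an edgeR adjusted p of 0.0107, a call that was lost without the 6 h replicate 2 (1.69, adjusted p = 0.0643) or the 12 h replicate 3 (1.46, adjusted p = 0.0653). ZNF681 (chr19:23739195-23758891, minus strand), a neighbour in the same cluster with 11 fingers, was at 3.97, 5.01 and 4.06 CPM in normoxia, 1.401, 0.681 and 0.663 CPM after 6 h, 0.609, 1.39 and 1.35 CPM after 12 h and 0.342 and 0.872 CPM after 24 h. It was low in all hypoxic libraries, by -2.27 ± 0.37 (SE) at 6 h, -1.94 ± 0.36 at 12 h and -2.88 ± 0.49 at 24 h, with edgeR adjusted p of 2.97e-04, 9.00e-04 and 2.90e-04, and by -3.67 at 24 h without replicate 2.

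ZNF599 (chr19:34758073-34773229, minus strand) is a KRAB gene of 14 fingers. It was at 3.17, 3.01 and 2.72 CPM in normoxia, 0.41001, 0.422 and 0.531 CPM after 6 h, 0.507, 0.622 and 0.525 CPM after 12 h and 0.257 and 1.47 CPM after 24 h. The 6 libraries at 6 and 12 h were tightly grouped, but the 24 h pair were far apart, both still under normoxia. Its log2 fold changes were -2.67 ± 0.40 (SE) at 6 h, -2.42 ± 0.39 at 12 h and -1.84 ± 0.46 at 24 h, with edgeR adjusted p of 1.47e-04, 3.39e-04 and 0.00436, and the 24 h value was -1.06 without replicate 1 and -3.53 without replicate 2. ZNF226 (chr19:44165073-44178381, plus strand), with 17 fingers, was at 10.1, 8.98 and 8.39 CPM in normoxia, 2.08, 1.46 and 1.76 CPM after 6 h, 1.35, 1.63 and 2.24 CPM after 12 h and 1.41 and 4.03 CPM after 24 h. Again the 24 h replicate 2 stood between normoxia and the other hypoxic libraries. The log2 fold changes were -2.37 ± 0.32 (SE) at 6 h, -2.38 ± 0.32 at 12 h and -1.77 ± 0.37 at 24 h, with edgeR adjusted p of 6.76e-05, 8.68e-05 and 0.00121, and the 24 h value was -2.71 without replicate 2.

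ZNF345 (chr19:36850361-36913029, plus strand) has 15 fingers and no KRAB-like stretch. It was at 2.26, 2.45 and 2.52 CPM in normoxia, 0.82001, 0.292 and 0.531 CPM after 6 h, 0.338, 0.296 and 0.3198 CPM after 12 h and 0.2995 and 0.599 CPM after 24 h. No hypoxic library came near normoxia, and log2 fold changes were -2.14 ± 0.32 (SE) at 6 h, -2.91 ± 0.34 at 12 h and -2.45 ± 0.41 at 24 h, with edgeR adjusted p of 1.42e-04, 3.53e-05 and 2.71e-04. ZNF665 (chr19:53159213-53193386, minus strand), a KRAB gene of 18 fingers, was at 2.82, 2.37 and 2.69 CPM in normoxia, 0.683, 0.195 and 0.455 CPM after 6 h, 0.4397, 0.563 and 0.708 CPM after 12 h and 0.642 and 0.545 CPM after 24 h. The ranges at 6, 12 and 24 h overlapped, all under normoxia, with log2 fold changes of -2.56 ± 0.34 (SE) at 6 h, -2.18 ± 0.33 at 12 h and -2.13 ± 0.41 at 24 h and edgeR adjusted p of 5.98e-05, 1.95e-04 and 6.52e-04.

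ZNF772 and ZNF497 lie in the large cluster at the end of the long arm. ZNF772 (chr19:57466663-57477570, minus strand), a KRAB gene whose stretch is printed above, was at 6.08, 4.37 and 5.07 CPM in normoxia, 2.597, 1.04 and 1.93 CPM after 6 h, 0.7103, 1.69 and 1.83 CPM after 12 h and 0.0856 and 0.926 CPM after 24 h. All hypoxic libraries were under normoxia, and at 24 h replicate 1 was near 0 while replicate 2 lay within the range of 12 h. The log2 fold changes were -1.48 ± 0.45 (SE) at 6 h, -1.86 ± 0.46 at 12 h and -3.44 ± 0.66 at 24 h, with edgeR adjusted p of 0.0155, 0.00533 and 6.98e-04. The 24 h value was -2.53 without replicate 1 and -5.88 without replicate 2, and the 6 h call was lost without the normoxic replicate 1 (-1.35, adjusted p = 0.0562) or the 6 h replicate 2 (-1.20, adjusted p = 0.0726). ZNF497 (chr19:58354357-58362848, minus strand), with 15 fingers and no KRAB-like stretch, was at 1.59, 2.19 and 1.73 CPM in normoxia, 0.171, 0.908 and 0.682 CPM after 6 h and 0.575, 0.593 and 0.411 CPM after 12 h. At 24 h it had at most 2 counts in either library, so against a floor of 3 counts per library it was at least 11.2-fold lower than in normoxia. Its log2 fold changes were -1.61 ± 0.40 (SE) at 6 h and -1.81 ± 0.41 at 12 h, with edgeR adjusted p of 0.00447 and 0.0028. An antisense neighbour overlaps 36.3% of its exonic bases, and whether the counting used strand is not given in the sources used here.

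**Figure D3:**
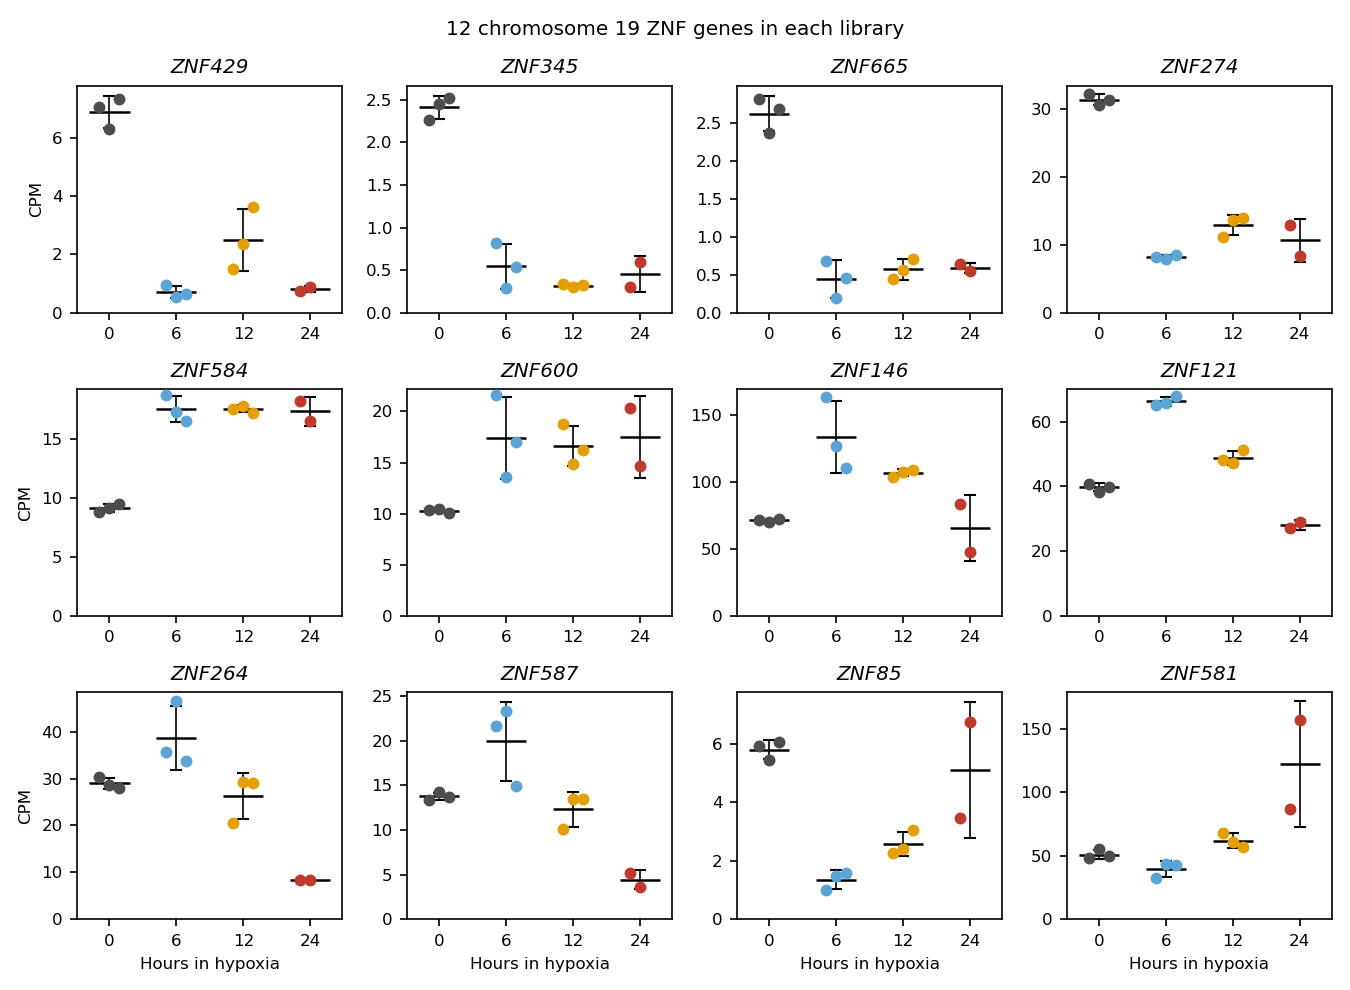
CPM (vertical axis, from 0) of 12 members in each library by hours in hypoxia, with points for libraries, a line for the mean and bars for the SD (n = 3, 3, 3 and 2). The top row and ZNF264 and ZNF587 are lower at 24 h than in normoxia, ZNF584 and ZNF600 are higher at all 3 times, and the 24 h pairs of ZNF85 and ZNF581 are spread widely.

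Only 3 members were called higher at all 3 times, so the rule for the 8 highest gave these 3. ZNF584 (chr19:58401504-58431736, plus strand), a KRAB gene of 8 fingers at the far end of the long arm, was the steadiest. It was at 8.85, 9.17 and 9.47 CPM in normoxia, 18.8, 17.3 and 16.6 CPM after 6 h, 17.6, 17.9 and 17.3 CPM after 12 h and 18.3 and 16.5 CPM after 24 h. The hypoxic libraries stood at nearly the same level throughout, well above normoxia. Its log2 fold changes were 0.94 ± 0.13 (SE) at 6 h, 0.94 ± 0.13 at 12 h and 0.92 ± 0.14 at 24 h, with edgeR adjusted p of 7.39e-05, 9.60e-05 and 1.23e-04, and the level was 191%, 192% and 189.8% of normoxia. An antisense neighbour overlaps 23.0% of its exonic bases. ZNF600 (chr19:52749942-52786807, minus strand), a KRAB gene of 18 fingers, was at 10.3, 10.4 and 10.1 CPM in normoxia, 21.6, 13.6 and 17.001 CPM after 6 h, 18.7, 14.8 and 16.3 CPM after 12 h and 20.3 and 14.7 CPM after 24 h. All 8 hypoxic libraries were above normoxia, by 0.76 ± 0.19 (SE) at 6 h, 0.69 ± 0.19 at 12 h and 0.77 ± 0.21 at 24 h, with edgeR adjusted p of 0.00461, 0.00856 and 0.00655. The 24 h call was lost without the 24 h replicate 1 (0.45, adjusted p = 0.0891), and 6.89% of its 75-base windows also occur in another gene, most often ZNF611.

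ZNF792 (chr19:34956354-34964229, minus strand), with 13 fingers, was at 2.17, 2.43 and 1.996 CPM in normoxia, 4.1001, 4.83 and 4.397 CPM after 6 h, 2.71, 4.33 and 3.81 CPM after 12 h and 4.36 and 2.56 CPM after 24 h. It was highest at 6 h. The log2 fold changes were 1.02 ± 0.24 (SE) at 6 h, 0.72 ± 0.24 at 12 h and 0.67 ± 0.27 at 24 h, with edgeR adjusted p of 0.00332, 0.0232 and 0.0482. The 12 h call was lost in 4 and the 24 h call in 9 of the 11 fits that left out 1 library, the latter with values from 0.17 without the 24 h replicate 1 to 0.73 without the normoxic replicate 2. When scaled by library size alone, ZNF584, ZNF600 and ZNF792 had 24 h values of 0.02, -0.10 and -0.19, none of them called, on a scale where the median of all genes was -0.97.

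The next comparison asks which members kept moving between 6 and 24 h. From 6 to 12 h, 9 members were called lower and 3 higher, against 3.07% and 1.88% of all genes tested (12 in either direction, against 4.95%), and the median was 0.018. From 12 to 24 h, 57 were lower and 5 higher, against 13.3% and 15.1% (62 in either direction, against 28.4%), with a median of -0.42. From 6 to 24 h, 63 were lower and 20 higher, against 20.3% and 22.1% (83 in either direction, against 42.4%), with a median of -0.36 beside -0.0010 over all genes. The counts from 6 to 12 h rested on single libraries, and so did those over all genes. With all libraries 989 of 19981 genes were called. Without the 6 h replicate 2, 151 of 19866 were, and without the 12 h replicate 3, 61 of 19927. Without the 6 h replicate 2 or the 12 h replicate 3 no member was called by edgeR in either direction, with 35 and 29 lower and 16 and 16 higher at an unadjusted p under 0.05, and without the 24 h replicate 1 or 2 the calls were 24 lower each and 16 and 17 higher. From 12 to 24 h, 28 and 29 were lower without the 12 h replicate 2 or 3, and 16 were higher without the 24 h replicate 1.

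Of the 4 largest falls from 6 to 24 h 3 were in genes that had not been called lower at 6 h, and all 4 lie in the cluster at the end of the long arm. ZNF551 (chr19:57681969-57717301, plus strand), a KRAB gene of 14 fingers, was at 4.11, 3.76 and 3.75 CPM in normoxia, 3.72, 2.85 and 2.88 CPM after 6 h, 1.32, 1.304 and 1.85 CPM after 12 h and 0.642 and 0.436 CPM after 24 h. The libraries of each time lay below those of the time before. The 6 h value of -0.30 ± 0.21 was not called (adjusted p = 0.252), and the change from 6 to 24 h was -2.52 ± 0.31 with an edgeR adjusted p of 1.26e-04. ZNF264 (chr19:57191500-57222846, plus strand), of 13 fingers, was at 30.3, 28.6 and 28.04 CPM in normoxia, 35.6, 46.5 and 33.8 CPM after 6 h, 20.6, 29.3 and 28.99 CPM after 12 h and 8.301 and 8.28 CPM after 24 h. At 6 h it stood above normoxia in each library, with a log2 fold change of 0.41 ± 0.17 and an adjusted p of 0.0516, and at 24 h both libraries were far below. The change from 6 to 24 h was -2.22 ± 0.21 with an edgeR adjusted p of 4.11e-05.

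ZNF587 (chr19:57849859-57865117, plus strand) and its close copy ZNF417 (chr19:57900296-57916610, minus strand) encode KRAB proteins known to bind and repress endogenous retroviruses of the HERV-K family. ZNF587 was at 13.4, 14.2 and 13.7 CPM in normoxia, 21.6, 23.3 and 14.9 CPM after 6 h, 10.1, 13.5 and 13.5 CPM after 12 h and 5.18 and 3.65 CPM after 24 h. It was above normoxia at 6 h and below at 24 h. From 6 to 24 h it fell, at -2.17 ± 0.25 with an edgeR adjusted p of 8.72e-05. Its 6 h increase of 0.53 ± 0.19 (adjusted p = 0.0353) was lost in 6 of 11 fits that left out 1 library, with values from 0.41 without the 6 h replicate 2 to 0.55 without the normoxic replicate 2. ZNF417 was at 11.6, 11.01 and 11.7 CPM in normoxia, 13.4, 11.4 and 8.6996 CPM after 6 h, 6.53, 7.53 and 7.45 CPM after 12 h and 3.47 and 1.91 CPM after 24 h, with a change from 6 to 24 h of -2.03 ± 0.26 and an edgeR adjusted p of 1.68e-04. Of the 75-base windows of ZNF587 18.6%, and of those of ZNF417 29.3%, also occur in another gene, most often in each other, so their counts are uncertain where the counting could split reads between them. ZNF587 also has an antisense overlap of 33.2% of its exonic bases. ZNF497, described above, was the remaining one and had the largest fitted fall of the 4, with a 24 h level under the floor (edgeR adjusted p = 0.0106, and 0.0676 without the 24 h replicate 1).

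The 4 largest increases from 6 to 24 h were in ZNF85, ZNF414, ZNF524 and ZNF581, and the last 3 have no KRAB-like stretch and an exonic GC content of 63.1% to 65.8%. ZNF85 (chr19:20923222-20950697, plus strand), a KRAB gene of 15 fingers from the same cluster as ZNF429, was at 5.92, 5.44 and 6.06 CPM in normoxia, 0.991, 1.49 and 1.57 CPM after 6 h, 2.27, 2.4003 and 3.04 CPM after 12 h and 3.47 and 6.76 CPM after 24 h. All 6 h libraries were under normoxia, and at 24 h replicate 1 was below and replicate 2 above it. The test gave 1.89 ± 0.30 from 6 to 24 h and an edgeR adjusted p of 4.45e-04. ZNF414 (chr19:8509678-8514167, minus strand) has 3 fingers and was at 6.12, 5.92 and 5.48 CPM in normoxia, 0.786, 1.59 and 1.57 CPM after 6 h, 2.03, 4.27 and 4.18 CPM after 12 h and 2.61 and 6.65 CPM after 24 h. Its change from 6 to 24 h, 1.78 ± 0.42 with an edgeR adjusted p of 0.00495, was 0.96 without the 24 h replicate 2 and then not called (adjusted p = 0.108). Here too the 24 h pair was split, with replicate 1 under normoxia. Against normoxia ZNF85 was not called at 24 h, at -0.19 ± 0.29, but it was called lower without the 24 h replicate 2 (-0.76, edgeR adjusted p = 0.0347).

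ZNF524 (chr19:55600022-55603138, plus strand), a small protein of 4 fingers known to bind telomeric repeats, was at 11.9, 12.6 and 13.2 CPM in normoxia, 5.64, 8.56 and 8.78 CPM after 6 h, 12.5, 11.9 and 11.5 CPM after 12 h and 14.6 and 33.03 CPM after 24 h. The 6 h libraries lay under normoxia and the 24 h ones above. The 6 h value of -0.71 ± 0.25 (edgeR adjusted p = 0.032) lost its call in 5 of 11 fits that left out 1 library, with values from -0.79 to -0.53. From 6 to 24 h it rose by 1.63 ± 0.28 with an edgeR adjusted p of 7.89e-04, and by 0.92 without the 24 h replicate 2 (adjusted p = 0.00612). Against normoxia its 24 h value was 0.92 ± 0.28 with an edgeR adjusted p of 0.0122, and 0.20 without replicate 2 (adjusted p = 0.464). ZNF581 (chr19:55635459-55645623, plus strand), of 4 fingers, was at 47.9, 54.96 and 49.8 CPM in normoxia, 32.4, 43.3 and 42.9 CPM after 6 h, 67.96, 60.8 and 56.5 CPM after 12 h and 87.03 and 157 CPM after 24 h. Both 24 h libraries were above all others. It rose from 6 to 24 h by 1.63 ± 0.22 with an edgeR adjusted p of 2.01e-04, and by 1.41 once length and GC were fitted as an offset.

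Members with a described function were taken from a list of 18, of which 17 are members and ZNF154 is not. At 6, 12 and 24 h, 9, 9 and 11 of the 17 were called lower and 2, 1 and 0 higher. The shares called lower were near those of all 210 members, of which 105, 111 and 133 were lower and 15, 9 and 11 higher. Over all genes tested, 27.7%, 27.1% and 31.3% were called lower and 25.1%, 24.2% and 29.9% higher. ZNF274 (chr19:58183029-58213562, plus strand) is a KRAB and SCAN protein known to bring SETDB1 to the 3′ ends of other zinc finger genes. It was at 32.1, 30.5 and 31.3 CPM in normoxia, 8.23, 7.82 and 8.51 CPM after 6 h, 11.2, 13.6 and 13.9 CPM after 12 h and 12.8 and 8.39 CPM after 24 h. No hypoxic library reached the lowest normoxic one. The log2 fold changes were -1.93 ± 0.17 (SE) at 6 h, -1.28 ± 0.16 at 12 h and -1.56 ± 0.19 at 24 h, with edgeR adjusted p of 3.20e-06, 6.49e-05 and 2.71e-05. ZNF132 (chr19:58432814-58440153, minus strand), whose promoter is often methylated in prostate cancer, was at 6.701, 6.08 and 6.97 CPM in normoxia, 3.14, 3.11 and 2.54 CPM after 6 h, 1.59, 3.05 and 2.88 CPM after 12 h and 1.37 and 2.02 CPM after 24 h. It was lower at each time, by -1.17 ± 0.24 (SE) at 6 h, -1.38 ± 0.25 at 12 h and -1.97 ± 0.31 at 24 h, with edgeR adjusted p of 0.0015, 6.00e-04 and 1.43e-04. ZNF331, an imprinted gene, was called lower at each time as well, with log2 fold changes of -1.11 ± 0.18 (SE) at 6 h, -1.08 ± 0.18 at 12 h and -1.50 ± 0.21 at 24 h.

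Repressors of retrotransposons were called at different times. ZNF91 (chr19:23304991-23395471, minus strand), which silences SVA elements and has 32 fingers, the most of any member, was at 16.8, 15.7 and 16.5 CPM in normoxia, 15.03, 8.72 and 7.96 CPM after 6 h, 4.46, 6.07 and 7.58 CPM after 12 h and 4.66 and 4.69 CPM after 24 h. It was lower at 12 and 24 h than in normoxia in each library. The log2 fold changes were -0.64 ± 0.24 (SE) at 6 h, -1.43 ± 0.25 at 12 h and -1.81 ± 0.30 at 24 h, with edgeR adjusted p of 0.0408, 4.89e-04 and 2.16e-04, and the 6 h call was lost in 5 of 11 fits that left out 1 library (-0.67 without the normoxic replicate 2 to -0.46 without the 6 h replicate 3). ZNF93, which silences young LINE-1 elements, was called lower at 6 h only, at -0.75 ± 0.25, and that call was lost in 4 of 11 such fits (adjusted p from 0.0500 to 0.0866). ZNF765, another factor that binds LINE-1, was called at none of the 3 times, with log2 fold changes of 0.21 ± 0.19 (SE) at 6 h, 0.10 ± 0.19 at 12 h and -0.50 ± 0.22 at 24 h. ZNF808, whose loss impairs formation of the pancreas, was not called either, with -0.33 ± 0.28 (SE) at 6 h, 0.21 ± 0.27 at 12 h and -0.51 ± 0.32 at 24 h.

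Among factors known to repress single genes, ZNF224, a repressor of the glycolytic gene ALDOA, had log2 fold changes of -1.22 ± 0.32 (SE) at 6 h, -1.05 ± 0.31 at 12 h and -1.67 ± 0.40 at 24 h, each called. Its 24 h value was -1.01 without the 24 h replicate 1 and -2.94 without replicate 2, and its 12 h call was lost without the normoxic replicate 2 (-0.98, adjusted p = 0.0519). ZNF350 (ZBRK1), which works with BRCA1 on GADD45A, had -0.62 ± 0.26 (SE) at 6 h, -0.47 ± 0.26 at 12 h and -0.96 ± 0.32 at 24 h and was called at 24 h alone, a call lost without the normoxic replicate 2 (-0.91) or the 24 h replicate 1 (-0.58). ZNF382, described as a tumour suppressor silenced by methylation, had -0.80 ± 0.26 (SE) at 6 h, -0.74 ± 0.26 at 12 h and -2.44 ± 0.38 at 24 h, each called, with the 6 h call lost in 2 and the 12 h call in 5 of 11 fits without 1 library. ZNF304 had -0.26 ± 0.16 (SE) at 6 h, -0.53 ± 0.16 at 12 h and -1.16 ± 0.19 at 24 h and was called at 12 and 24 h. ZNF175 (OTK18) was called lower at 6 and 24 h, with -0.69 ± 0.19 (SE) at 6 h, -0.43 ± 0.18 at 12 h and -1.10 ± 0.22 at 24 h, and ZNF568, which represses a placental transcript of Igf2 in mice, was called lower at 6 and 12 h, with -1.89 ± 0.37 (SE) at 6 h, -1.86 ± 0.37 at 12 h and -0.76 ± 0.42 at 24 h. ZNF649 had 0.36 ± 0.19 (SE) at 6 h, 0.24 ± 0.19 at 12 h and 0.15 ± 0.22 at 24 h and was called at none of them. ZNF146 (OZF), made almost only of fingers, was at 71.9, 70.3 and 72.04 CPM in normoxia, 163, 127 and 111 CPM after 6 h, 104, 108 and 109 CPM after 12 h and 83.3 and 48.01 CPM after 24 h. It was raised at 6 and 12 h and not at 24 h, with log2 fold changes of 0.90 ± 0.19 (SE) at 6 h, 0.58 ± 0.19 at 12 h and -0.12 ± 0.22 at 24 h and edgeR adjusted p of 0.00178, 0.0229 and 0.645. Its 12 h call was lost in 5 of 11 fits that left out 1 library, with values from 0.54 to 0.58.

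Levels between genes were compared as mean CPM per kb of exon over all libraries. The median member was at 0.810 CPM per kb. ZNF581 was highest at 39.0, followed by ZNF146 at 23.4, ZNF524 at 9.10, ZNF317 at 7.85, ZNF121 at 6.54 and ZNF358 at 6.51 CPM per kb. This mean pools normoxic and hypoxic libraries, so genes that rose stand higher in it than in normoxia alone, where ZNF581 was at 31.1, ZNF146 at 17.2, ZNF83 at 9.798, ZNF524 at 8.73, ZNF317 at 5.89, ZNF121 at 5.48 and ZNF358 at 5.02 CPM per kb, with ZNF865 at 5.37 and ZNF561 at 5.29 between the last pair. ZNF83, ZNF865 and ZNF561 were chosen after their values were seen. All 6 genes ranked over all libraries were called higher than normoxia at 1 or more of the 3 times, and 5 of the 6 lack a KRAB-like stretch. Over all genes tested, 25.1%, 24.2% and 29.9% were called higher at 6, 12 and 24 h taken singly. As the ranking itself favours genes that rose, these calls are not a separate result. ZNF121 and ZNF358 were too close to be ordered. ZNF358 was at 9.94, 11.4 and 10.1 CPM in normoxia, 7.48, 10.4 and 14.2 CPM after 6 h, 16.9, 12.6 and 13.4 CPM after 12 h and 16.002 and 26.6 CPM after 24 h, with 1.02 ± 0.27 at 24 h and an edgeR adjusted p of 0.00501, which was 0.59 and not called without the 24 h replicate 2 (adjusted p = 0.0862). Of the exonic bases of ZNF358, 14.1% overlap an antisense gene and 18.3% of its windows are shared. ZNF317 was at 29.4, 29.0 and 30.8 CPM in normoxia, 48.4, 50.04 and 42.99 CPM after 6 h, 47.3, 47.2 and 44.98 CPM after 12 h and 46.7 and 19.1 CPM after 24 h. The 24 h pair lay on either side of normoxia, and the 24 h value of 0.15 ± 0.26 was -0.70 without the 24 h replicate 1 and 0.63 without replicate 2, both called. The 6 and 12 h increases of ZNF317, 0.67 ± 0.23 and 0.65 ± 0.23 with edgeR adjusted p of 0.03 and 0.0354, were each lost in 6 of 11 fits that left out 1 library.

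Members with and without a KRAB-like stretch differed in median, and so did those of low and high GC content. The 179 with the stretch had medians of -0.62, -0.64 and -1.10 at 6, 12 and 24 h, with 90, 101 and 120 called lower and 12, 6 and 5 higher. The 31 without it had -0.48, -0.25 and -0.40, with 15, 10 and 13 lower and 3, 3 and 6 higher. Of all genes tested, 27.7%, 27.1% and 31.3% were called lower and 25.1%, 24.2% and 29.9% higher. From 6 to 24 h the medians were -0.46 and 0.08. The 2 sets also differ in base composition, with a median exonic GC content of 42.6% and 59.8%. Split by GC instead, the 180 members under 50% had medians of -0.62, -0.64 and -1.12, and the 30 at 50% or more had -0.31, -0.06 and -0.16. The 11 members with low GC and no KRAB-like stretch had -0.54, -0.44 and -1.01, and the 10 with high GC and the stretch 0.03, -0.25 and -0.37. Among all 7593 protein-coding genes under 50% GC, the medians were 0.04, 0.0046 and -0.05. With an offset for length and GC content in the fit, the members' medians were -0.54, -0.55 and -0.88. None of these differences between sets of members was tested.

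**Figure D4:**
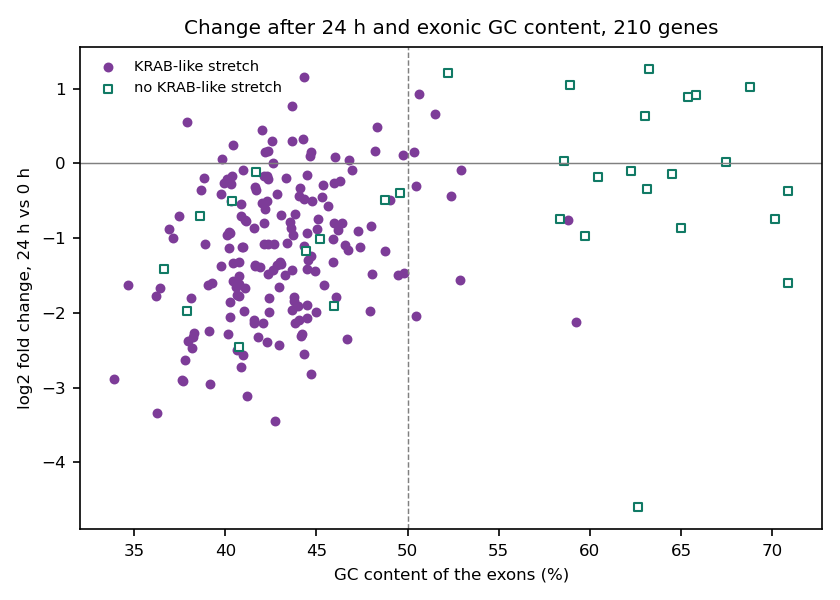
Each point is 1 of the 210 members, with the GC content of its exons in percent (horizontal axis) against its log2 fold change at 24 h over normoxia (vertical axis), filled for a KRAB-like stretch and open squares for none. Left of the dashed line at 50% most points are below 0 (median -1.12 of 180 genes), and right of it they lie on both sides (median -0.16 of 30).

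The members' other features were compared in the same way. Those with up to 8 fingers (38 members) had a median of -0.82 at 24 h, those with 9 to 16 (128 members) -0.95, and those with 17 or more (44 members) -1.27. From 6 to 24 h the medians of these groups were 0.03, -0.42 and -0.72. Reads that fit several genes are a concern in a family of duplicates, so members were split by the share of their 75-base windows found in another gene. The 160 members with under 5% shared had medians of -0.57, -0.58 and -0.92, and the 50 with more had -0.49, -0.62 and -1.23. The 170 members with under 5% antisense overlap of exons had -0.58, -0.63 and -1.08, and the other 40 had -0.51, -0.45 and -0.90.

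The fall was spread over the clusters of the chromosome, which were defined by gaps of at most 1 Mb between neighbouring ZNF genes. The 27 members between 19.7 and 24.1 Mb, a block of KRAB genes of low GC content (median 38.2%) that holds ZNF429, ZNF681, ZNF91 and ZNF85, had medians of -0.89, -1.03 and -1.63, with 19, 19 and 22 called lower. The 20 members between 43.6 and 45.1 Mb, with ZNF224 and ZNF226, had -0.96, -1.10 and -1.42, with 12, 14 and 13 called lower. Of all genes tested, 27.7%, 27.1% and 31.3% were called lower at these times. The 52 members between 55.5 and 58.5 Mb had -0.47, -0.51 and -0.99, the 37 between 51.6 and 53.6 Mb -0.43, -0.24 and -0.94, and the 26 between 36.2 and 37.8 Mb -0.64, -0.60 and -0.84. The 4 members between 2.82 and 2.945 Mb had medians of 0.10, -0.13 and -0.13, with 1 called lower at each time. In the last cluster on the long arm, 21 of 52 members were called lower from 6 to 24 h with a median of -0.35. In the other clusters 42 of 158 were, with a median of -0.36, against 20.3% of all genes tested.

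**Figure D5:**
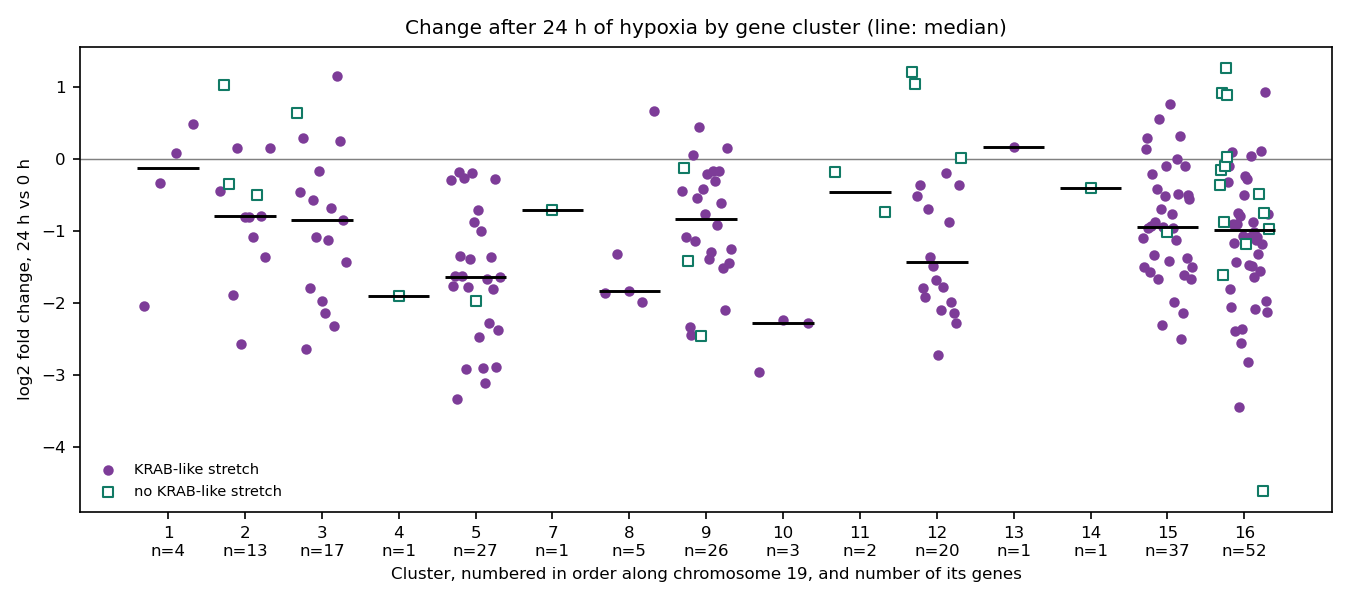
Log2 fold change at 24 h over normoxia (vertical axis) of the 210 members by cluster, numbered along the chromosome with the number of genes under each (horizontal axis), with filled points for a KRAB-like stretch, open squares for none and lines for medians. The medians of clusters 5, 8, 10 and 12 are at -1.63, -1.84, -2.27 and -1.42. Open squares lie on both sides of the cluster medians. The 6 of clusters 2 and 12 lie above, while ZNF345 in cluster 9 (median -0.84) and ZNF497 in cluster 16 (median -0.99) lie below.

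Genes of the same class on this chromosome that carry another symbol were taken from a list of 18, of which 11 were tested. At 6, 12 and 24 h, 5, 3 and 6 of them were called lower and 1, 0 and 0 higher, with medians of -0.67, -0.49 and -0.76. The shares called lower were 45.45%, 27.27% and 54.55%, against 27.7%, 27.1% and 31.3% of all genes tested. At 12 h this share was near that of all genes. Those called higher were 9.09%, 0% and 0%, against 25.1%, 24.2% and 29.9%. ZSCAN18 was the lowest at each time, with log2 fold changes of -2.71, -2.34 and -2.48, and MZF1, a myeloid zinc finger factor, had -1.71, -1.15 and -1.49. ZBTB7A, which was called higher at 6 h (0.53), was called lower at 24 h (-0.81).

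The partners of KRAB proteins were measured as a list of 15, all of them tested. At 6, 12 and 24 h, 6, 4 and 7 were called higher and 3, 4 and 5 lower, and the medians were 0.28, 0.17 and -0.13. The shares called lower were 20%, 26.7% and 33.3%, near the 27.7%, 27.1% and 31.3% of all genes, and those called higher 40%, 26.7% and 46.7%, against 25.1%, 24.2% and 29.9%. TRIM28, the scaffold, had log2 fold changes of 0.28, 0.17 and 0.66 and was called at 24 h alone. SETDB1, the methyltransferase, was called lower at each time, at -1.03, -0.54 and -1.04. The heterochromatin proteins went in different directions, CBX5 (HP1 alpha) at -0.88, -0.82 and -2.01 and CBX1 (HP1 beta) at 0.64, 0.83 and 1.25. CBX3 (HP1 gamma) was called at 24 h, at 0.66. Of the NuRD complex, the deacetylases HDAC1 (0.35, 0.32 and 0.63) and HDAC2 (0.95, 0.97 and 1.24) were called higher at each time. Its helicases differed, CHD4 at 0.50, 0.35 and 0.76, called higher at 6 and 24 h, and CHD3 at -0.23, -0.61 and -1.45, called lower at 12 and 24 h. Of the HUSH silencing complex, TASOR was called lower at each time, at -0.38, -0.45 and -1.01, PPHLN1 higher at each, at 0.63, 0.48 and 0.72, and MPHOSPH8 at none, at 0.01, 0.14 and -0.13. Its partner MORC2 was called higher at 6 h (0.76) and lower at 24 h (-0.64).

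Promoters were examined for the core letters of a HIF response element, ACGTG and GCGTG, on both strands. RefSeq gave a promoter of 250 bases before to 50 after the start (GRCh38.p14) for 191 of the 210 members. ACGTG was present in 36 of them (18.8%), against 21.6% of all promoters in the table and 23.7% of those of protein-coding genes. GCGTG was present in 100 (52.4%), against 36.3% and 44.3%. The members' promoters held a median of 20 CpG sites, against 14 and 22. Letters that match are a description and not a site. The promoters of ZNF584, higher at all 3 times, ZNF587, which changed direction with time, and ZNF429, 1 of the 8 that fell most, are printed 5′ to 3′ on the coding strand with these letters in capitals on either strand.

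ZNF584, chr19:58408399-58408698, plus strand: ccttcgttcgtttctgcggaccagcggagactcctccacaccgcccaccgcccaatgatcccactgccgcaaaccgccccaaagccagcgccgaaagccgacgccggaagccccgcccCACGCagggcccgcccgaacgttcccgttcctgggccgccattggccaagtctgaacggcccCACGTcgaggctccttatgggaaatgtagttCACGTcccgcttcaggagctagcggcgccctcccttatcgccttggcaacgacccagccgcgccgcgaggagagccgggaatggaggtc
ZNF587, chr19:57849609-57849908, plus strand: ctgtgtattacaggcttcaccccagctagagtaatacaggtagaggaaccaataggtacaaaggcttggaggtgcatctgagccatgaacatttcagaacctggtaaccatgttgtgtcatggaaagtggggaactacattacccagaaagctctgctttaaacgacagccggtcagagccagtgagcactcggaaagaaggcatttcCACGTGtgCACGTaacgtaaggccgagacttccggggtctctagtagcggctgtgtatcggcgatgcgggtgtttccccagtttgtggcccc
ZNF429, chr19:21505352-21505651, plus strand: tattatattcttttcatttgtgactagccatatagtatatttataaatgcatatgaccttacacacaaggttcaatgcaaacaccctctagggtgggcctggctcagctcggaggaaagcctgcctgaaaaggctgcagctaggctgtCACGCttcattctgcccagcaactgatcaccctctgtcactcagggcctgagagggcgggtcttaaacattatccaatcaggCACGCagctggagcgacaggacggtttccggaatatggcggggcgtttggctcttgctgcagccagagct

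ZNF584 has ACGTG at 2 places and GCGTG at 1. In ZNF587 ACGTG was found 3 times, and 2 of these are both strands of 1 palindrome. ZNF429 has GCGTG at 2 places and no ACGTG.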

How the data were processed

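RNA-seq of 11 RWPE1 libraries was analysed from the table of raw gene counts that the authors deposited. Per the submitters' processing notes Trimmomatic, STAR, featureCounts, FastQC and DESeq2 were used, and genes were those of Ensembl 99 on GRCh38. The strand setting and the treatment of multi-mapping reads are not given in the sources used here.

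Counts were fitted with edgeR 4.0.16 in R 4.3.3 (TMM factors, quasi-likelihood test, a mean per time point over all libraries). Genes passed filterByExpr with a minimum count of 10 and a minimum total of 15, which left 19981 of 60676, and p-values were Benjamini-Hochberg adjusted over them. A gene was called at an adjusted p under 0.05. Log2 CPM used a prior count of 2, with a biological coefficient of variation of 19.6%. The test was checked on simulated counts in which a far smaller share of genes changed than was called here, equally up and down. That check does not cover so broad a change between libraries. Gene positions and exons came from GENCODE 44 (60357 identifiers matched), promoters from RefSeq. Alternatives were limma 3.58.1, DESeq2 1.42.0, other scalings and filters, a length and GC offset (mgcv 1.9.3), a replicate block, a member minimum of 1000 counts, and the omission of each library.

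The members, lists and rules were chosen with earlier results of these data known. Named were the 8 highest and 8 lowest means of the 3 log2 fold changes among members called the same way at all 3 times, the 4 highest and 4 lowest changes from 6 to 24 h among those called, the 6 highest levels per kb, and members with a known role. ZNF417 is also named as the copy of ZNF587.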

Additional observations from a re-analysis of the deposited data

Results flagged for a closer look

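In 6 members (2.86%) the calls at 6 h and at 24 h against normoxia went in opposite directions. Higher at 6 h, not called at 12 h and lower at 24 h were 4 members (1.9%), against 1.28% of all genes tested. Higher, higher and lower was 1 member (0.476%), against 0.285%, and lower, not called and higher was 1 (0.476%), against 0.355%. These shares are low in both sets and near each other. The direct test of 24 h against 6 h was called in each of the 6 by edgeR's quasi-likelihood test. The normoxic libraries are shared by the 6 h and 24 h comparisons. Genes picked for opposite calls there will mostly be called in the direct test too, so that test adds no separate support. ZNF524 was lower at 6 h and higher at 24 h, with a log2 fold change of 1.63 from 6 to 24 h. The other 5 were higher at 6 h and lower at 24 h. Their changes from 6 to 24 h were -2.17 for ZNF587, -1.54 for ZNF430, -1.49 for ZNF814, -1.32 for ZNF324 and -1.24 for ZNF121. With 1 library left out, the 6 h call was lost in 6 of 11 fits for ZNF587, in 5 for ZNF814, in 5 for ZNF524 and in 3 for ZNF430, and the 24 h call was lost in 1 for ZNF430 and in 1 for ZNF524.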

How the results depend on the processing

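Across the alternatives, 319 of the summary values stayed within their limits and 77 moved, and among values of named genes 2520 kept direction and call, 140 lost and 77 gained a call, and 6 reversed. With library size alone, members called higher numbered 3, 0 and 0 at 6, 12 and 24 h, the medians were -0.88, -1.08 and -1.93 (all genes -0.32, -0.50 and -0.97), 12 h against 6 h had 1 higher, 24 h against 12 h had 1 higher, 98 lower and a median of -0.85, and 24 h against 6 h had 4, 120 and -0.97. Over all 19981 genes tested, this scaling gave 2713, 2116 and 2222 higher at 6, 12 and 24 h. Under it ZNF121 at 12 h was -0.17, and at 24 h ZNF792 was -0.19, ZNF649 -0.78, ZNF600 -0.10 and ZNF524 -0.12. ZNF317 at 24 h was -0.70 without the 24 h replicate 1 and 0.63 without the 24 h replicate 2. Sample quality weights gave 25 higher at 12 h, 5 higher and 65 lower at 24 h, and 31 and 26, 0 and 3, and 4 and 13 for 12 against 6, 24 against 12 and 24 against 6 h. Over all 19981 genes these weights gave 7142 higher at 12 h, and 3719 higher and 2450 lower at 24 h. For 12 against 6 h they gave 2117 higher and 2372 lower. DESeq2 gave 11 higher and 23 lower for 12 against 6 h (725 and 1168 over all genes tested). No filter gave a median of -1.11 at 24 h and 10 higher for 12 against 6 h, and 10 counts in every library gave 4 higher at 12 h. Only the groups compared gave 20 higher at 12 h, 7 and 14 for 12 against 6 h, 0 and 0 for 24 against 12 h by edgeR, and 6 and 33 for 24 against 6 h. With that setting 0 of all 17807 genes tested were called for 24 against 12 h, so the 0 is not particular to the members. At 12 h 6300 of 18657 genes were higher with it. The length and GC offset gave 14 higher at 12 h, a median of -0.88 at 24 h, 10 higher for 12 against 6 h and a median of -0.27 for 24 against 12 h. A minimum of 1000 counts gave 68 lower at 6 h, 73 lower with a median of -0.44 at 12 h, and a median of -0.92 at 24 h. Where no member was called, an unadjusted p under 0.05 was reached by 1 higher at 12 h and 0 at 24 h with library size alone, by 3 higher for 24 against 12 h with quality weights, and by 6 higher and 65 lower there with only the groups compared. The cause was not tested.

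Same-numbered libraries did not deviate together (r from -0.16 to 0.21 over 15 pairs), and the replicate block gave 3 lower for 12 against 6 h. Without 1 library each, medians lay between -0.66 and -0.52 at 6 h, -0.67 and -0.52 at 12 h, -1.11 and -0.97 at 24 h, -0.05 to 0.10 for 12 against 6 h, -0.45 to -0.35 for 24 against 12 h and -0.46 to -0.27 for 24 against 6 h. In the same order the counts higher ran from 9 to 19, 2 to 15, 7 to 11, 0 to 17, 2 to 16 and 13 to 23, and those lower from 83 to 126, 89 to 130, 123 to 135, 0 to 24, 28 to 69 and 54 to 73. At 24 h the median member had 56.5 counts in replicate 2, which limits its low genes.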
